A study of Mus musculus with 6 samples.

Results

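The imprinted genes examined here were 34 genes taken from a list of well-known imprinted genes, from *H19* to *Rasgrf1*, and each was found by its gene symbol in a matrix of 61880 rows. Each gene is given as the row that carries its symbol and as its locus sum, the total of all rows that share the same assembled locus number. The 34 genes lay in 34 of 53912 loci, and these loci held 71 rows. The RNA came from mammary epithelial cells that were released by enzymatic digestion from the inguinal mammary glands of female mice, with 3 pooled samples from *fat-1* mice and 3 from wild-type (WT) mice, to learn how lifelong exposure to *n*-3 polyunsaturated fatty acids (PUFA) affects the transcriptome in puberty. The *fat-1* group carried a *Caenorhabditis elegans* transgene for an *n*-3 desaturase that makes *n*-3 from *n*-6 PUFA throughout the body, and the WT group lacked it. Both groups were on the FVB background, were aged 6 to 8 weeks, and stayed for life on the parental modified AIN93G diet with 10% fat by weight from safflower oil, which provided 22% of energy. The promoter that drives the transgene is not given in the sources used here, each sample pooled the glands of several mice, and the stage of the estrous cycle was not determined.

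Imprinted genes are transcribed mainly from the allele of one parent, because methylation laid down in the egg or the sperm marks a control region that governs a cluster of neighbouring genes. Many paternally expressed members promote growth of the embryo and placenta, many maternally expressed members restrain it, and long noncoding RNAs from the same clusters silence neighbours or host small RNAs. In the mammary gland and other adult tissues, several of them mark stem, stromal or undifferentiated cells. The counts held no information on the parental allele, so the words maternal and paternal below are the known origin of each gene and not a measurement.

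The genes fell into 17 clusters on 10 chromosomes, with 15 genes on chromosome 7 and 5 on chromosome 12. Of the 34 genes, 27 were protein-coding and 7 noncoding, and 13 were listed as maternally and 21 as paternally expressed. Each gene has a single such label, whatever its tissue or its different transcripts. Coordinates are from the GENCODE annotation of GRCm38. Some genes lie over another gene. *Kcnq1ot1* lies within *Kcnq1* on the opposite strand, *Airn* starts inside *Igf2r* on the opposite strand, *Nnat* lies in *Blcap*, *Peg13* in *Trappc9*, *Nap1l5* in *Herc3* and *Zrsr1* in *Commd1*. *Nnat*, *Peg13* and *Nap1l5* share 0 annotated exonic bases with these hosts. Exons of other genes overlap those of a gene on the opposite strand. The overlap covers 30.7% of *Cdkn1c* (with *Gm44732*), 23.1% of *Mest* (*Copg2*), 14.3% of *Usp29* (*Zim3*) and 13.1% of *Gnas* (*Gm20721*). Whether strand was used in counting is not stated, so the counts of all these genes are uncertain.

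A microRNA is hosted by 3 of the genes that lead their cluster by locus sum per length. Its mature sequences are shown because the host RNA and the small RNA are made from the same transcript. They are from RefSeq on GRCm38.p6, printed 5′ to 3′ with the seed (bases 2 to 8) in capitals.
miR-675-5p in *H19* (chr7:142577112-142577133, minus strand): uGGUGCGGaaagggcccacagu
miR-675-3p in *H19* (chr7:142577078-142577099, minus strand): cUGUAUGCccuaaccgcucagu
miR-770-5p in *Meg3* (chr12:109563710-109563731, plus strand): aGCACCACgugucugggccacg
miR-770-3p in *Meg3* (chr12:109563744-109563765, plus strand): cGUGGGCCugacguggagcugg
miR-335-5p in *Mest* (chr6:30741314-30741336, plus strand): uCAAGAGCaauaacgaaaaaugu
miR-335-3p in *Mest* (chr6:30741354-30741375, plus strand): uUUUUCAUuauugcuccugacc
The rows of the hairpins held almost no counts. *Mir675* had 1 count in every sample, *Mir770* had 3, 2 and 2 counts in *fat-1* pools and 1, 3 and 1 in WT pools, and *Mir335* had 5, 3 and 0 counts and 1, 3 and 2. The host levels below therefore say nothing of the mature microRNAs, which this kind of library does not measure.

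Control regions of imprinted clusters keep their methylation through ZFP57, a zinc finger protein that recognises the letters TGCCGC when the CpG in them is methylated. RefSeq promoter windows (250 bases before to 50 bases after a start, GRCm38.p6) were at hand for 26 of the 34 genes. The motif was found on either strand in 8 of the 26 genes (30.8%) and in 13.1% of all 27025 genes with such windows. A CpG observed to expected ratio of at least 0.6 was found in 15 of the 26 genes (57.7%) and in 38.4% of all genes. The windows of *Nap1l5* and *Mest*, both paternally expressed, are shown because they held 2 matches each, which stand in capitals (on the other strand the motif reads GCGGCA).
*Nap1l5* (chr6:58907077-58907376, minus strand): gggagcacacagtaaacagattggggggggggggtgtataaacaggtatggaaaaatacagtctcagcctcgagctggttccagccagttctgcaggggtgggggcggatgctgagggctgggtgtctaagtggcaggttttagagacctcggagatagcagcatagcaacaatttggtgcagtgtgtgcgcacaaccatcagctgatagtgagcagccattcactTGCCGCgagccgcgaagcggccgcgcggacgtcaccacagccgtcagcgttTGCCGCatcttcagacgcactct
*Mest* (chr6:30737803-30738102, plus strand): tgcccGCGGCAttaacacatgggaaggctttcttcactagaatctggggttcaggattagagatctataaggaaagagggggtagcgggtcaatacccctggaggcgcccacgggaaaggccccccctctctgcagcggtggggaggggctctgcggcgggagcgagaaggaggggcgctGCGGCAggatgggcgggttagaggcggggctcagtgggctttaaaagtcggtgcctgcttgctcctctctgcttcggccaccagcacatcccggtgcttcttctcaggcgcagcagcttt
A match is a description of these letters only, and methylation was not measured.

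Library totals ran from 204539059 to 232148824 counts, so a count of 0 allows at most 0.0147 CPM (counts scaled to the library total; 3 counts, counting error only). All 10 luminal and all 6 basal markers had counts in every sample, and so did all 6 fibroblast, 4 endothelial, 2 pericyte and 5 immune markers. Of the 4 adipocyte markers 3 had counts in every sample, at a sum of 0.564 to 1.31 CPM. Fewer cells of a type and less RNA per cell cannot be told apart in bulk samples like these. The summed luminal markers ranged from 797 to 3291 CPM in *fat-1* pools and from 848 to 2778 CPM in WT pools, and the basal markers from 139.5 to 535 CPM and from 135 to 417 CPM. Summed fibroblast markers ranged from 1551 to 6065 CPM and from 3332 to 5617 CPM, and immune markers from 604 to 1300.0 CPM and from 599 to 1338 CPM. Endothelial markers lay between 152 and 217 CPM and pericyte markers between 42.2 and 92.5 CPM over all samples. An epithelial score, the mean log2(CPM + 1) of the luminal and basal markers, was highest in WT sample 1 (6.63) and *fat-1* sample 1 (6.50), intermediate in WT sample 2 (5.86) and *fat-1* sample 3 (5.78), and lowest in WT sample 3 (4.86) and *fat-1* sample 2 (4.76). A fibroblast score made the same way ran from 7.43 in *fat-1* sample 1 to 9.64 in *fat-1* sample 3. Both genotypes thus held samples rich and poor in epithelial RNA.

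Most of the imprinted genes were expressed, at levels that spanned several orders of magnitude. Per length of exon, the row of *Impact*, a regulator of translation under amino acid starvation, was the highest at 30.3 ± 4.26 CPM per kb (SD, *n* = 6), followed by *Gnas*, which encodes the stimulatory G protein subunit downstream of many hormone receptors, at 25.2 ± 4.79 CPM per kb. These neighbours overlapped between samples, from 24.2 to 36.8 for *Impact* and from 17.8 to 31.6 for *Gnas*. The order held for rows with the gene symbol. As sums over all rows of the locus, *Gnas* (69.3 CPM per kb) was above *Impact* (46.9 CPM per kb). The locus of *Zrsr1* was the highest sum, at 72.0 CPM per kb, but it also holds *Cct4*. The symbol row of *Gnas* held 36.3% of its locus on average and that of *Impact* 64.4%. Among rows, next came *Igf2r*, the receptor that clears IGF2, at 12.2 ± 2.34, *Grb10*, an adaptor that damps insulin receptor signalling, at 9.30 ± 1.67, *Zrsr1*, which encodes a splicing factor-like protein, at 8.73 ± 3.76, and *Ube3a*, the ubiquitin ligase of Angelman syndrome, at 4.73 ± 0.190 CPM per kb. The ranges of *Igf2r*, *Grb10* and *Zrsr1* overlapped, so their order was within the spread of the samples. At the lower end, *Dlk1*, a membrane ligand known from progenitor and fat cell precursors, had 0.187 ± 0.0417 CPM per kb, the potassium channel gene *Kcnq1* 0.121 ± 0.0478, and *Rtl1*, a retrotransposon-derived gene, 0.0604 ± 0.0209. The plot of levels by gene shows that the red and blue points of most genes lie among each other.

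**Figure D1:**
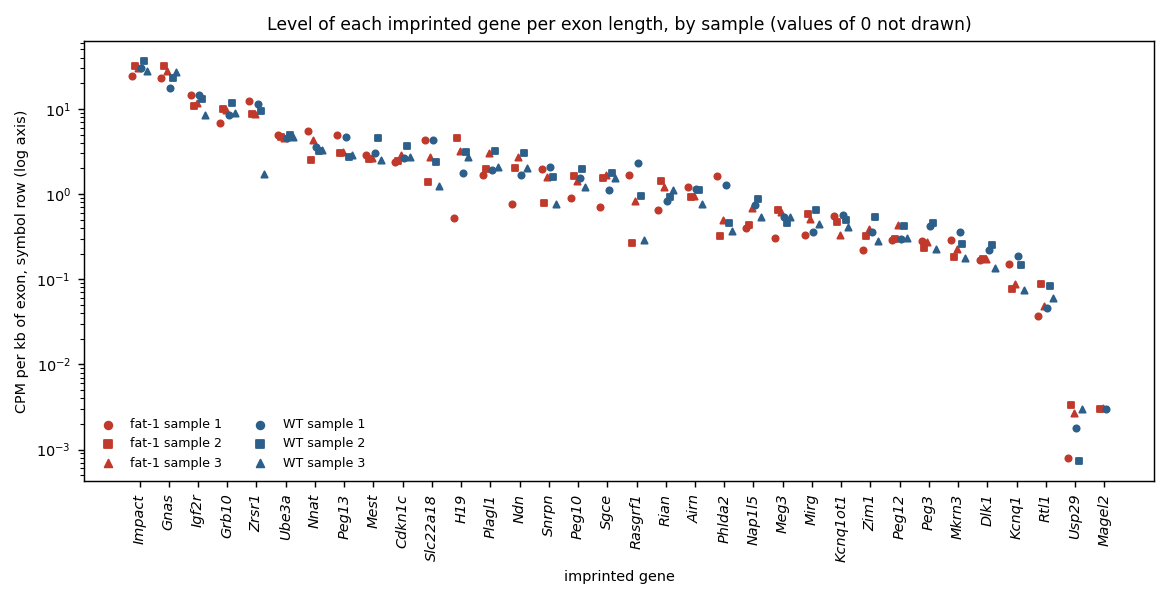
Level of each of the 34 imprinted genes (CPM per kb of exon in the row with the gene symbol, log axis) in each *fat-1* (red) and WT (blue) sample, with genes ordered by their mean; values of 0 are not drawn. *Impact* (mean 30.3) and *Gnas* (25.2) stand at the top, and *Usp29* and *Magel2* lie far below the rest.

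*Usp29* and *Magel2* were at or near the limit of detection and were not tested. *Usp29*, a ubiquitin protease gene of the *Peg3* cluster, had 3, 13 and 10 counts in *fat-1* pools and 7, 3 and 11 in WT pools. *Magel2*, a gene of the Prader-Willi region expressed chiefly in the brain, had 0, 3 and 3 counts and 3, 0 and 0. No difference between genotypes was detectable at these counts.

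No difference between *fat-1* and WT mice passed the test for any of the imprinted genes. Of the 34 genes, 32 had enough counts to be tested, both as symbol rows and as locus sums. With edgeR's quasi-likelihood test and Benjamini–Hochberg adjustment over all rows or loci, 0 of the 32 rows and 0 of the 32 locus sums had an adjusted *p*-value of at most 0.05, and the same held for 0% of all 30683 rows and 0% of all 24061 loci. Raw (unadjusted) *p*-values were at most 0.05 for 0 of the 32 rows, beside 2.21% of all rows, and for 0 of the 32 locus sums, beside 1.14% of all loci. The exact test of edgeR called 0 of the 32 rows, beside 0.104% of all rows, and 0 of the 32 locus sums, beside 0.0249% of all loci. DESeq2 called 0 of the 32 rows, beside 0.303% of all rows, and 0 of the 32 locus sums, beside 0.0332% of all loci. The smallest unadjusted *p*-value of a locus sum was 0.127, for *Peg3*, with an adjusted value of 1.00. The values of the genotypes overlapped for all 32 locus sums, whereas they lay apart for 4.15% of all loci and for 5.26% of all rows.

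Fold changes of the locus sums were small, from −0.51 for *Nap1l5* to 0.21 for *Phlda2* on the log2 scale (*fat-1* relative to WT). The median was −0.07, beside 0.00 over all loci, and 21 of the 32, beside 49.4% of all loci, were below 0 and 11 above. Of the maternally expressed genes 5 were above and 8 below 0, with a median of −0.03, and of the paternally expressed genes 6 were above and 13 below, with a median of −0.13. In absolute size, the median was 0.12 for the imprinted genes and 0.11 over all loci. How small a change the samples could show varied by gene. The 95% interval lay within 1.5-fold either way for 9 genes and within 2-fold for 20, and it reached past 2-fold for 12. The narrowest was that of *Ube3a*, from 0.863-fold to 1.16-fold, and the widest that of *Rasgrf1*, from 0.259-fold to 4.12-fold. For these 12 genes, a change of 2-fold cannot be told from none.

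**Figure D2:**
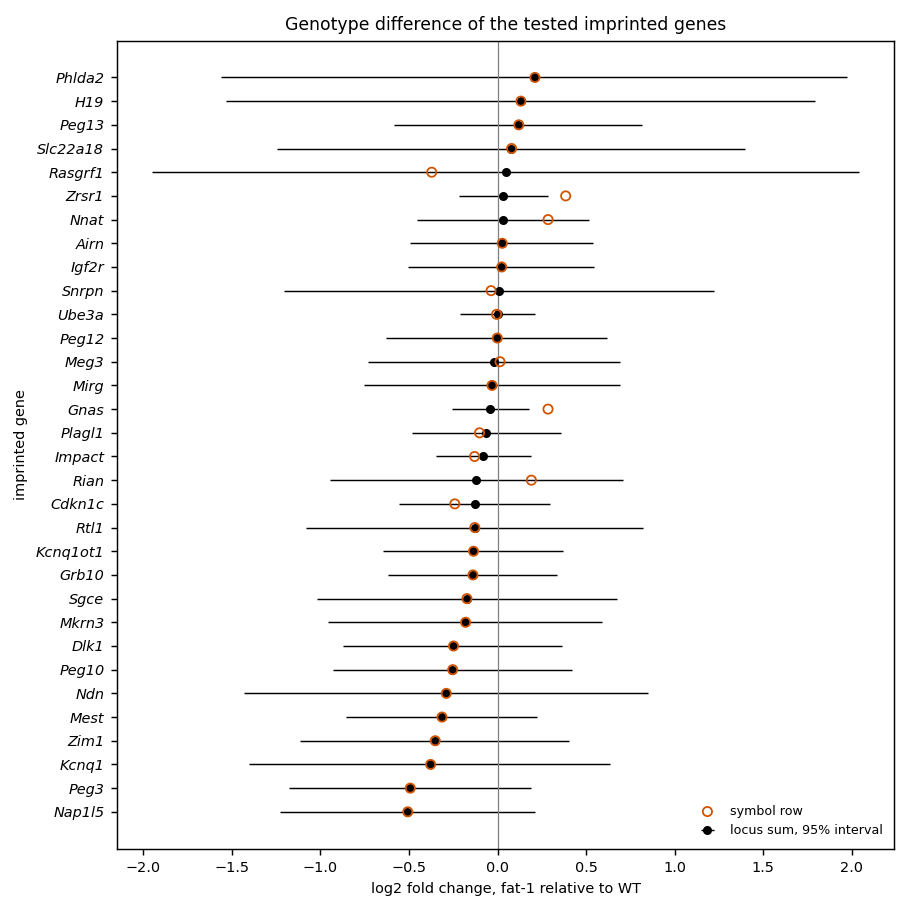
Log2 fold change of *fat-1* relative to WT for the 32 tested imprinted genes, with locus sums as black points, their 95% intervals as lines, and rows with the gene symbol as open circles. All intervals cross 0, and they are widest for *Rasgrf1*, *Phlda2* and *H19*.

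The noncoding RNAs of the imprinted clusters were expressed in every sample. *H19* (chr7:142575529-142578143, minus strand), a maternally expressed RNA that restrains growth, had 1.30, 11.3 and 7.82 CPM in *fat-1* pools 1, 2 and 3 and 4.37, 7.58 and 6.70 CPM in WT pools 1, 2 and 3. The lowest and the highest sample were both *fat-1*, 8.66-fold apart, and the WT samples lay between them. The log2 fold change was 0.13 (standard error, SE, 0.69), and its sign turned in the fit with the replicate block (−0.24).

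*Meg3* (chr12:109541001-109571726, plus strand), an RNA with growth-suppressing functions that opens a long maternal transcription unit, had 50.1, 102 and 103 CPM as a locus sum in *fat-1* pools and 82.0, 104 and 72.6 CPM in WT pools. *Rian*, which hosts small nucleolar RNAs further along this unit, had 19.5, 46.9 and 41.6 CPM and 31.6, 49.0 and 36.7 CPM. *Mirg*, a microRNA host at its far end, had 2.42, 4.27 and 3.70 CPM and 2.63, 4.72 and 3.28 CPM. In all 3 RNAs *fat-1* sample 1 was lowest and WT sample 2 highest. The ratio of *Meg3* to *Rian* varied less than either level, at 2.40 ± 0.209 (SD, *n* = 3) in *fat-1* pools and 2.23 ± 0.321 in WT pools. The protein-coding, paternally expressed genes of the same cluster were lower per length than *Meg3*, with 0.187 CPM per kb for *Dlk1* and 4.73 for *Meg3* as locus sums. A row without a symbol held 88.9% of the *Meg3* locus, and the *Meg3* symbol row had 0.517 CPM per kb. *Dlk1* had 0.943, 0.979 and 0.976 CPM and 1.25, 1.42 and 0.773 CPM, and *Rtl1* stayed between 0.242 and 0.559 CPM in all samples.

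*Airn*, the paternally expressed antisense RNA that silences *Igf2r* in cis, had 4.38, 3.32 and 3.47 CPM in *fat-1* pools and 4.18, 4.02 and 2.78 CPM in WT pools. *Igf2r* itself had 134, 101 and 109 CPM and 137, 122 and 80.2 CPM. Sense and antisense RNA varied together over the samples, and their CPM ratio was 30.8 ± 0.546 (SD, *n* = 3) in *fat-1* and 30.6 ± 1.98 in WT pools. They share 0 annotated exonic bases, but unspliced *Airn* runs through *Igf2r*, so reads of the pair may have been split between the rows. *Kcnq1ot1*, the silencing RNA of the *Kcnq1* cluster, ranged from 31.2 to 50.6 CPM in *fat-1* pools and from 38.0 to 53.0 CPM in WT pools, and *Kcnq1*, whose introns hold it, from 0.306 to 0.776 CPM over all samples. *Peg13*, a noncoding RNA inside *Trappc9*, had 23.5, 14.2 and 14.7 CPM and 21.9, 12.8 and 13.6 CPM, with sample 1 highest in both genotypes.

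Among the genes known to restrain growth, *Cdkn1c* (chr7:143458339-143461050, minus strand) encodes the cyclin-dependent kinase inhibitor p57. Its locus sum was 7.95, 8.71 and 10.4 CPM in *fat-1* pools and 11.4, 10.1 and 8.12 CPM in WT pools. A row without a symbol held 39.5% of this locus. By locus sum per length it led the *Kcnq1* cluster, but its samples (3.90 to 5.58 CPM per kb) overlapped those of *Slc22a18* (1.25 to 4.28). As symbol rows the 2 genes had 2.78 ± 0.464 and 2.71 ± 1.33 CPM per kb (SD, *n* = 6). The log2 fold change of the *Cdkn1c* locus sum was −0.13 (SE 0.18), and the 95% interval ran from 0.680-fold to 1.23-fold. *Grb10* had 61.6, 90.4 and 89.0 CPM and 76.5, 107 and 82.4 CPM, and its log2 fold change was −0.14 (SE 0.20).

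*Plagl1*, a zinc finger transcription factor that regulates other imprinted genes, had 20.6, 27.6 and 28.0 CPM in *fat-1* pools and 23.6, 31.4 and 24.8 CPM in WT pools. In *Plagl1* as in *Grb10*, *fat-1* sample 1 was lowest and WT sample 2 highest. *Phlda2*, which limits growth of the placenta, was sparse and uneven, with 1.80, 0.364 and 0.553 CPM and 1.43, 0.516 and 0.409 CPM. Sample 1 of both genotypes stood apart from the others, and the same was seen for its neighbour *Slc22a18*, a transporter gene, which had 7.22, 2.36 and 4.58 CPM and 7.27, 4.04 and 2.13 CPM.

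Among the paternally expressed genes that promote growth or mark undifferentiated cells, *Mest*, which encodes a hydrolase, had 11.3, 10.2 and 10.5 CPM in *fat-1* pools and 11.9, 17.8 and 10.1 CPM in WT pools. WT sample 2 stood above the other 5 samples, which lay close together. *Peg3*, a zinc finger gene, had 3.76, 3.09 and 3.62 CPM and 5.61, 6.14 and 3.001 CPM. WT samples 1 and 2 were above all *fat-1* samples and WT sample 3 was below them. Its log2 fold change was −0.50 (SE 0.28). Without WT sample 3 it was −0.74, with an unadjusted *p*-value of 0.00431 and an adjusted one of 1.00 by edgeR's quasi-likelihood test. In that fit, 2.19% of all loci were at or under 0.05 unadjusted. The sample left out is the one that ran against the difference, so this *p*-value is no evidence for it.

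*Zim1*, the maternally expressed zinc finger neighbour of *Peg3* and the highest of this cluster per length, had 1.76, 2.60 and 3.12 CPM in *fat-1* pools and 2.87, 4.37 and 2.31 CPM in WT pools. Its lead over *Peg3*, at 0.351 beside 0.316 CPM per kb, was within the spread of the samples. *Peg10*, a retrotransposon-derived gene needed for the placenta, had 5.94, 11.0 and 9.63 CPM and 10.4, 13.2 and 8.13 CPM. *Sgce*, which encodes a sarcoglycan and lies head to head with *Peg10*, had 7.53, 16.3 and 18.0 CPM and 11.7, 18.97 and 16.5 CPM. *Fat-1* sample 1 was the lowest and WT sample 2 the highest sample for *Zim1*, *Peg10* and *Sgce*, and the genotypes overlapped.

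*Rasgrf1*, a guanine nucleotide exchange factor for Ras, varied more widely than all others but *H19*. Its locus sum was 66.1, 10.7 and 25.6 CPM in *fat-1* pools and 63.0, 25.98 and 10.2 CPM in WT pools. Each genotype thus had a sample above 60 CPM, a sample near 26 CPM and a sample near 10 CPM, and the log2 fold change was 0.05 (SE 0.83).

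Between the highest and the lowest sample, the locus sums of *Gnas*, *Impact* and *Ube3a* differed by less than 1.5-fold. *Gnas* (chr2:174284320-174346744, plus strand) had 691, 785 and 817 CPM as a locus sum in *fat-1* pools and 742, 839 and 777 CPM in WT pools, a spread of 1.21-fold. *Impact* had 219.9, 248 and 234 CPM and 234, 283 and 225 CPM. *Ube3a* (chr7:59228750-59311536, plus strand), known to be imprinted chiefly in neurons, had 157, 143 and 133 CPM and 141, 148 and 143 CPM, a spread of 1.18-fold and a log2 fold change of 0.00 (SE 0.09). For these 3 locus sums the 95% interval excluded changes over 1.5-fold. For the symbol row of *Gnas* it did not, as the interval ran from 0.875-fold to 1.70-fold.

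*Nnat*, which encodes a small membrane protein of the endoplasmic reticulum, had 14.7, 10.0 and 10.4 CPM in *fat-1* pools and 11.8, 12.996 and 9.61 CPM in WT pools. *Nap1l5*, a nucleosome assembly protein-like gene, had 0.725, 0.792 and 1.28 CPM and 1.38, 1.60 and 1.01 CPM. *Fat-1* samples 1 and 2 were below all WT samples, and *fat-1* sample 3 lay among them. The log2 fold change of *Nap1l5* was −0.51 (SE 0.30), the most negative of the list. Without *fat-1* sample 3 it was −0.81, with an unadjusted *p*-value of 0.0309 and an adjusted one of 1.00 by edgeR's quasi-likelihood test. In that fit, 1.62% of all loci were at or under 0.05 unadjusted. Here too the sample left out is the one that ran against the difference, so this *p*-value is no evidence for it.

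In the Prader-Willi and Angelman region of chromosome 7, *Snrpn* and *Mkrn3* ranked the 6 samples in the same order and *Ndn* in another. *Snrpn*, which encodes a protein of spliceosomal ribonucleoproteins, had 8.14, 2.997 and 5.16 CPM as a locus sum in *fat-1* pools and 8.18, 5.44 and 2.60 CPM in WT pools. *Mkrn3*, known as a brake on the onset of puberty, had 0.730, 0.466 and 0.572 CPM and 0.907, 0.653 and 0.448 CPM. *Ndn*, which restrains cell proliferation, had 2.81, 7.53 and 10.1 CPM and 6.16, 11.3 and 7.48 CPM. *Snrpn* and *Mkrn3* were high in sample 1 of both genotypes, where *Ndn* was lowest within each genotype. The ratio of *Snrpn* to *Ndn* went from 0.398 to 2.90 in *fat-1* pools and from 0.347 to 1.33 in WT pools, while *Peg12* stayed between 0.763 and 1.15 CPM.

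Some of the genes differed widely over the 6 samples. The highest sample was over 2-fold above the lowest in 16 of the 32 locus sums, beside 41.4% of all loci. The spread was 8.66-fold for *H19*, 6.46-fold for *Rasgrf1*, 4.96-fold for *Phlda2*, 4.03-fold for *Ndn*, 3.42-fold for *Slc22a18* and 3.15-fold for *Snrpn*. *Fat-1* sample 1 was the lowest sample in 16 of the 32 genes and WT sample 3 in 11, and WT sample 2 was the highest in 15. These samples also differed in their marker scores, so each locus sum was set against the epithelial and the fibroblast score across the 6 samples, which made a family of 64 relations.

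After Benjamini–Hochberg adjustment, 0 of the 64 relations had a *p*-value of at most 0.05 by the exact permutation test (two-sided), with 0.0711 the smallest for Pearson's *r* and 0.152 the smallest for Spearman's rho. Before adjustment 18 were at most 0.05 for Pearson's *r*. Gene and score come from the same libraries, and 3 samples per genotype are too few for values within a genotype. The relations below are therefore descriptions of the 6 samples.

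With the epithelial score, 9 of the 32 locus sums had a raw *p*-value of at most 0.05 with positive *r*, beside 15% of all loci, and 0 with negative *r*, beside 11.7%. For *Snrpn*, *r* was 0.991 and rho 0.943 (exact permutation *p* = 0.00694 and 0.0167, adjusted 0.0741 and 0.152), and *r* was 0.994 when the 2 samples most distant from the median score were left out. *Rasgrf1* had *r* = 0.991 and rho = 0.886 (exact permutation *p* = 0.0208 and 0.0333, adjusted 0.103 and 0.152), with *r* = 0.986 without those 2 samples. *Slc22a18* had *r* = 0.988 and rho = 0.886 (exact permutation *p* = 0.0125 and 0.0333, adjusted 0.0889 and 0.152), with *r* = 0.967 without them. The other 6 were *Mkrn3*, *Igf2r*, *Kcnq1*, *Airn*, *Phlda2* and the *Zrsr1* locus, with *r* between 0.878 and 0.951, rho between 0.886 and 0.943, and adjusted *p*-values of *r* from 0.0711 to 0.158. Without the 2 farthest samples their *r* lay between 0.721, for the *Zrsr1* locus, and 0.949, for *Phlda2*. The farthest samples for this score were WT sample 3 and *fat-1* sample 2. Those that remained formed 2 pairs, with scores of 6.63 and 6.50 and of 5.86 and 5.78. An *r* from them mainly contrasts the 2 pairs and is a weak check of a relation. Of the 9 loci, 4 are named for maternally and 5 for paternally expressed genes, the latter with *Zrsr1*. The *Zrsr1* locus also holds *Cct4*, and the symbol row held 11.9% of its counts on average. The relation of that locus is thus not one of *Zrsr1* itself.

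With the fibroblast score, 7 of the 32 genes had a raw *p*-value of at most 0.05 with positive *r*, beside 8.78% of all loci, and 2 with negative *r*, beside 5.58%. *Ndn* had *r* = 0.983 and rho = 0.886 (exact permutation *p* = 0.00556 and 0.0333, adjusted 0.0711 and 0.152), and *r* was 0.921 when the 2 samples most distant from the median of that score were left out. *Sgce* had *r* = 0.970 and rho = 0.943 (exact permutation *p* = 0.00417 and 0.0167, adjusted 0.0711 and 0.152), with *r* = 0.885 without those 2. *Gnas* had *r* = 0.954 and rho = 0.886 (exact permutation *p* = 0.00556 and 0.0333, adjusted 0.0711 and 0.152), with *r* = 0.906 without them.

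The other positive relations were those of *Rian*, *Grb10*, *Plagl1* and *Meg3*, with *r* between 0.867 and 0.900, rho between 0.714 and 0.886, and adjusted *p*-values of *r* from 0.0963 to 0.117. *H19* had *r* = 0.855 and rho = 0.657 (exact permutation *p* = 0.0556, adjusted 0.187 for *r*). Without the 2 farthest samples, *fat-1* samples 1 and 3, *r* dropped to 0.259 for *Meg3* and 0.278 for *H19*. These samples were left out only together, so which of them the 2 relations rest on was not tested. Without the same samples, *r* was 0.623, 0.748 and 0.808 for *Rian*, *Plagl1* and *Grb10*. *Peg13* (*r* = −0.843, rho = −0.657) and *Phlda2* (*r* = −0.814, rho = −0.429) had negative values, with adjusted *p*-values of *r* of 0.0963 and 0.152. The part of the cell makeup in these levels was not tested.

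**Figure D3:**
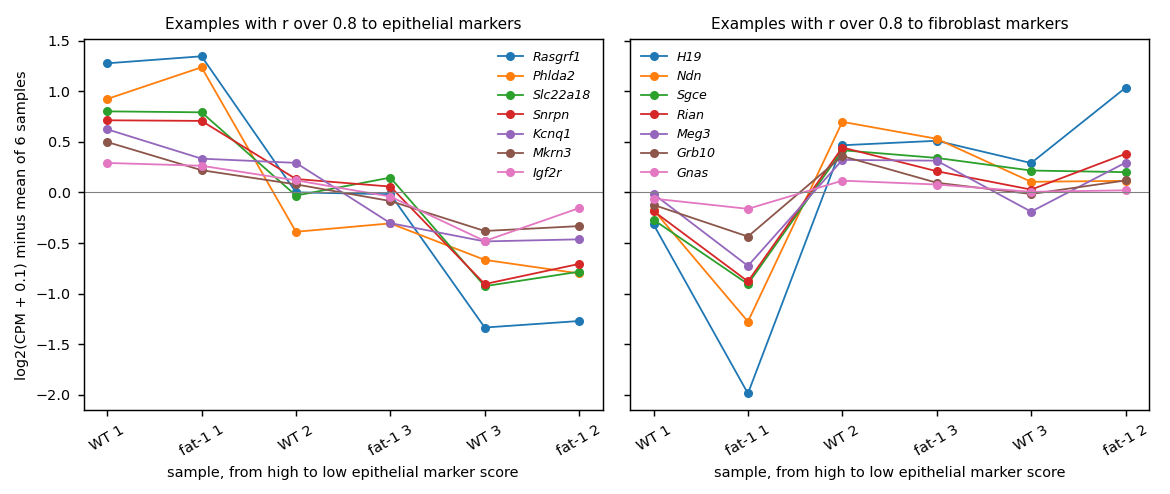
Levels of 14 imprinted genes (log2 of the locus sum in CPM plus 0.1, minus the mean of the 6 samples), with samples ordered from the highest (WT 1) to the lowest (fat-1 2) epithelial marker score. The genes were picked as examples with a high *r*, to the epithelial score on the left and to the fibroblast score on the right. On the left, 7 genes such as *Snrpn* and *Rasgrf1* are higher in WT 1 and fat-1 1 than in WT 3 and fat-1 2. On the right, 7 genes such as *Ndn* and *H19* are lowest in fat-1 sample 1, the sample with the lowest fibroblast score (7.43).

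**Figure D4:**
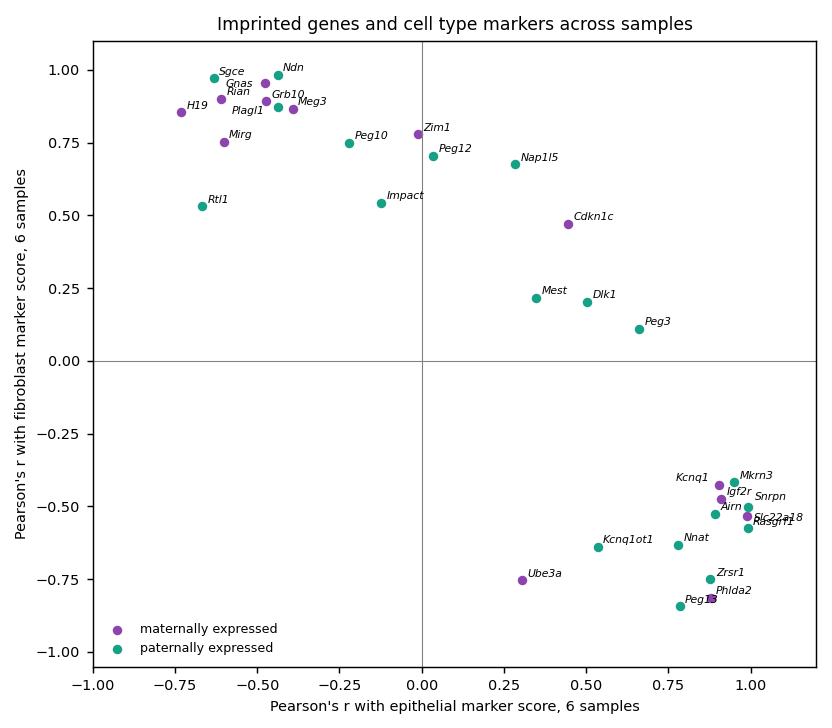
Pearson's *r* of each tested imprinted gene with the epithelial marker score (horizontal) and with the fibroblast marker score (vertical) over the 6 samples, with maternally expressed genes in purple and paternally expressed genes in green. Both colours occur at the upper left, around *Ndn* and *Gnas*, and at the lower right, around *Snrpn* and *Slc22a18*, and no adjusted *p*-value was at most 0.05.

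For 13 genes the locus had several rows, and the row with the symbol held from 11.1% of its counts on average (*Meg3*) to 99.9% (*H19*). In 10 of these loci a row without a symbol held part of the counts. The *Meg3* row had 5.45, 11.7 and 11.0 CPM in *fat-1* pools and 9.72, 8.38 and 9.82 CPM in WT pools, and the row without a symbol held 88.9% of the locus. The order of the samples was thus not the same in the row and in the sum, although *fat-1* sample 1 was lowest in both.

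*Gnas* had 259, 353 and 315 CPM in its symbol row in *fat-1* pools and 199.5, 260.1 and 301 CPM in WT pools, which was 40.3% ± 4.04 (SD, *n* = 3) and 32.2% ± 6.06 of the locus. On the log2 scale, the fold change was 0.29 (SE 0.19) for this row, −0.22 (SE 0.12) for the row without a symbol and −0.04 (SE 0.09) for their sum. With the epithelial score as a covariate, the *Gnas* row had a log2 fold change of 0.26 and an unadjusted *p*-value of 0.0349 by edgeR's quasi-likelihood test, with an adjusted value of 1.00.

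The *Rasgrf1* row held 34.1% of its locus, with 18.4, 2.98 and 9.22 CPM in *fat-1* pools and 25.9, 10.5 and 3.21 CPM in WT pools. *Zrsr1* shows how a row can depart from its locus in 1 sample. Its row had 55.4, 39.1 and 38.7 CPM in *fat-1* pools and 51.9, 42.4 and 7.72 CPM in WT pools, and the share of the locus fell to 2.57% in WT sample 3 from 13.04% to 15.6% in the other WT samples. The row's log2 fold change was 0.38 (SE 0.65), and −0.09 without WT sample 3. The locus, which also holds *Cct4*, a subunit gene of a chaperonin, and a row without a symbol, had 369, 297 and 315 CPM and 334, 325 and 301 CPM, so its sum is not the level of *Zrsr1*. The genotypes overlapped in the share of all 13 genes, and the largest shift between genotype means was 10.3 percentage points, for *Rian*.

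**Figure D5:**
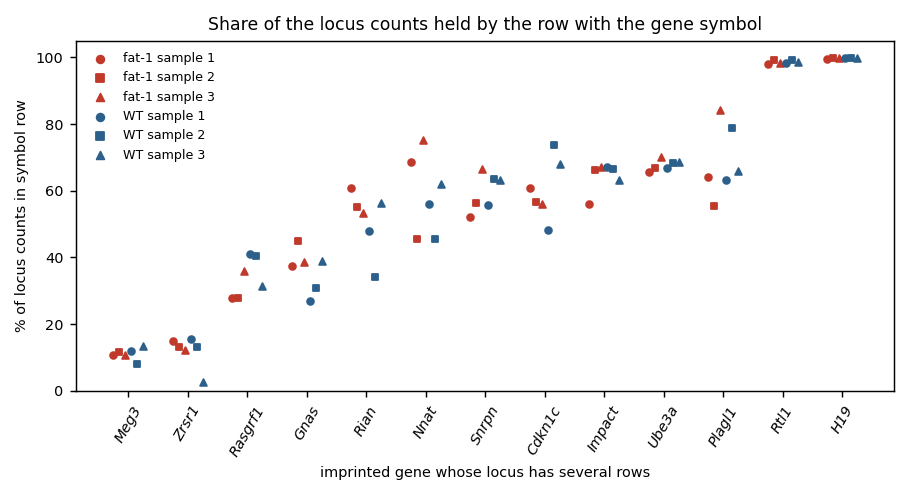
Percent of the counts of a locus that lay in the row with the gene symbol, for the 13 imprinted genes whose locus has several rows, in each *fat-1* (red) and WT (blue) sample. *Meg3* and *Zrsr1* lie lowest, with WT sample 3 at 2.57% for *Zrsr1*, and the genotypes overlap for every gene.

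Other genes known as imprinted in the mouse were counted beside these. Of 44 listed, 42 had a row and 34 were tested. By edgeR's quasi-likelihood test, 0 locus sums had an adjusted or raw *p*-value of at most 0.05, beside 0% and 1.14% of all loci. Of these locus sums 16 were above and 18 below 0, with a median log2 fold change of −0.01. *Dcn*, the matrix proteoglycan decorin and itself in the fibroblast marker list, was the highest, with 898, 1462 and 1996 CPM in *fat-1* pools and 1726, 2080.4 and 1618 CPM in WT pools. *Ago2*, the slicing Argonaute, ranged from 232 to 284 CPM over all samples. The locus of *Ampd3*, an AMP deaminase, ranged from 152 to 244 CPM, and that shared by *Cd81*, a tetraspanin, and *Tssc4* from 137 to 189.9 CPM.

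As rows, 2 of the 34 had a raw *p*-value of at most 0.05, beside 2.21% of all rows, and 0 an adjusted one. The row of *Dhcr7*, which encodes the last enzyme of cholesterol synthesis, had 1467, 1292 and 57 counts in *fat-1* pools and 100, 29 and 24 in WT pools, a log2 fold change of 4.22 (SE 1.26). The *fat-1* samples 1 and 2 stood far above the rest, and *fat-1* sample 3 lay among the WT samples. Its locus sum was level, with 1467, 1292 and 1741 counts and 1355, 1635 and 1444, or 7.12 ± 1.18 CPM and 6.86 ± 0.465 CPM (SD, *n* = 3). The *Ampd3* row had 60.05, 73.6 and 51.5 CPM in *fat-1* pools and 81.3, 111 and 75.8 CPM in WT pools, which lay apart, with a log2 fold change of −0.54 (SE 0.21). The sum of its locus had a log2 fold change of 0.11 (SE 0.19).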

How the data were processed

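RNA-Seq of 6 pooled samples (3 *fat-1*, 3 WT) was analysed from 1 matrix of estimated counts. The authors used HISAT2 to place paired-end reads on GRCm38 and StringTie to assemble and quantify transcripts, and the deposited values are estimated counts, whole numbers that were not normalized. The annotation, the strand setting and the conversion of coverage to counts are not given in the sources used here. The labels name total RNA and an mRNA library, so the recovery of non-polyadenylated RNA is uncertain. Rows without a symbol (6425) held 27.5% of all counts and stayed in the library sizes, since they are assembled loci. Nothing says that same-numbered samples share an origin, and *p*-values measure the spread between pools.

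Rows and locus sums were each fitted in R 4.3.3 with edgeR 4.0.16 (filterByExpr, TMM, glmQLFit with the newer fit, genotype as the only term), and *p*-values were adjusted by Benjamini–Hochberg over the whole table at a threshold of 0.05. Standard errors (SE) were derived from the F statistic, as the ratio of the log2 fold change to its root. Alternatives were edgeR's exact test and older fit, DESeq2 1.42.0 (size factors and Wald test), no filter, a replicate block, the epithelial score as a covariate, and leaving out each sample. CPM are relative to the normalized total. Relations with marker scores used exact permutation of the 6 samples. The scripts were tested on simulated data. Summaries used pandas 2.3.3, numpy 2.4.6 and scipy 1.17.1 in Python 3.11.15, and plots matplotlib 3.10.9.

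The genes, lists and tests were chosen with earlier results of these data known. The naming rule asked for values in each sample for genes with a raw *p*-value of at most 0.05, for the gene with the highest locus sum per length in each cluster, and for genes whose symbol row held under 50% of its locus or shifted by over 25 percentage points. It also named, of the other imprinted genes, the 4 highest and those at or under 0.05 as locus sums. *Rian*, *Mirg*, *Dlk1*, *Airn*, *Phlda2*, *Slc22a18*, *Peg3*, *Sgce*, *Snrpn*, *Mkrn3*, *Ndn*, *Usp29*, *Magel2* and *Dhcr7* were given in each sample after their values had been seen, as was the row of *Ampd3*.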

Additional observations from a re-analysis of the deposited data

How the results depend on the processing

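Under every alternative run, 0 rows and 0 locus sums of the imprinted genes had an adjusted *p*-value of at most 0.05, and 0 relations with the marker scores did, also with a pseudocount of 0.1 or raw library sizes. At the unadjusted threshold, 1 row (*Gnas*) passed with the epithelial covariate, beside 3.28% of all rows, and 0 to 1 rows and 0 to 1 locus sums passed with a sample left out, beside 2.02% to 3.13% of all rows and 0.824% to 2.19% of all loci (*Nnat* without *fat-1* sample 2, *Nap1l5* without *fat-1* sample 3 and *Peg3* without WT sample 3). For the other imprinted genes, 0 to 2 locus sums passed the unadjusted threshold with a sample left out, beside the same 0.824% to 2.19% of all loci. DESeq2 called 1 row of these genes (*Dhcr7*, adjusted *p* = 0.0282), beside 0.303% of all rows. Signs were followed for 29 log2 fold changes of rows and locus sums, not for all that were tested. Of their 203 values refitted on all 6 samples 197 kept their sign. The 6 that turned were the *H19* sum (−0.25 with the epithelial covariate, −0.24 with the replicate block), the *Ube3a* sum (−0.00012 with no filter, −0.0017 with the block) and the *Meg3* row (−0.066 with the covariate, −0.057 with the block). With a sample left out 40 of 174 turned. The locus sums then ranged from −0.091 to 0.037 for *Gnas*, −0.24 to 0.029 for *Grb10*, −0.45 to 0.63 for *H19*, −0.16 to 0.19 for *Igf2r*, −0.13 to 0.026 for *Impact*, −0.18 to 0.26 for *Meg3*, −0.69 to 0.089 for *Ndn*, −0.16 to 0.13 for *Nnat*, −0.15 to 0.40 for *Peg13*, −0.77 to 0.96 for *Phlda2*, −0.14 to 0.076 for *Plagl1*, −0.86 to 0.91 for *Rasgrf1*, −0.36 to 0.19 for *Rian*, −0.40 to 0.13 for *Sgce*, −0.36 to 0.61 for *Slc22a18*, −0.40 to 0.44 for *Snrpn* and −0.052 to 0.055 for *Ube3a*, and the rows from −0.18 to 0.30 for *Meg3*, −1.11 to 0.57 for *Rasgrf1*, −0.038 to 0.46 for *Rian* and −0.087 to 0.82 for *Zrsr1*. The cause of these turns was not tested. With the replicate number as a block, 0 rows and 0 locus sums of the imprinted genes were called and 376 of all loci passed the unadjusted threshold, beside 274 without it. Same-numbered samples correlated with 0.799, −0.164 and 0.132 in their deviations from the genotype means, and not every sample correlated best with its own number. With 3 samples per genotype, these values cannot tell whether same-numbered samples share an origin. The counts of *Usp29* and *Magel2* were too low for a test.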
